A study of Homo sapiens with 4 samples.

Results

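This report describes 7 genes of cholesterol synthesis and its control in 2 human liver cancer cell lines, HepG2 and Huh7, before and after sonodynamic therapy (SDT). They were taken by name: HMGCS1, IDI1, FDFT1, SQLE and LSS are enzymes of the synthesis pathway, and INSIG1 and SREBF2 control it. All 7 had an identifier in the table of gene names. They are set against the 22148 annotated genes that the deposited tables give as background. The tables do not name these genes, so whether the members that stand under no term were among them could not be read. The name of the group includes cholesterol uptake, but no member is an uptake gene, so uptake genes are described from a separate list. In SDT, ultrasound activates a sensitizer that the cells have taken up.

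Group A was HepG2 cells and group C was Huh7 cells before treatment. Group B was HepG2 cells and group D was Huh7 cells after treatment with targeted nanobubbles that carried hematoporphyrin monomethyl ether (HMME), the sensitizer, together with lonidamine (LND), under low-frequency ultrasound. Sequencing was of total RNA after removal of ribosomal RNA, and each of these 4 groups is a single library. HepG2 and Huh7 are established cell lines, and their liver markers could not be checked because the tables hold no levels. The treated groups differ from groups A and C by nanobubble, HMME, LND and ultrasound at once, and these cannot be told apart. With 1 library per group, no difference has a replicate check. The values below therefore describe these libraries, and no p-value is given.

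The readout is membership of a list. For each comparison (B vs. A in HepG2 and D vs. C in Huh7) the authors called differentially expressed mRNAs and set out their identifiers under Gene Ontology (GO) terms and KEGG pathways. A gene is called listed here when its identifier stood under any GO term of that comparison. The tables give neither expression level nor direction, so a listed gene may have risen or fallen. A gene that was not listed may have been unchanged, too lowly expressed to be called, measured with too little precision, or outside the background, and these cannot be told apart. In HepG2 cells 4783 genes were listed, 21.6% of the background, and in Huh7 cells 4369 genes were listed, 19.7% of it.

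Cholesterol is built from acetyl-CoA. A first arm, the mevalonate arm, makes farnesyl diphosphate, and a second arm, the sterol arm, joins and folds it into lanosterol and trims that to cholesterol. The transcription factor SREBP2, the product of SREBF2, is held in the endoplasmic reticulum by SCAP and INSIG proteins while sterols are plentiful, and is released and cut in the Golgi when they are scarce. Its nuclear part then activates genes of both arms and of lipoprotein uptake. It binds sterol regulatory elements, usually beside sites for the factors NF-Y and Sp1. The liver is a main site of this control.

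Promoter sequence is shown for the 3 members that were listed in a cell line (HMGCS1, IDI1 and INSIG1) and for SREBF2, which held the closest match to a sterol regulatory element. The sequences are from RefSeq (build GRCh38.p14), read 5′ to 3′ on the strand of the gene, and each is 60 bases long. The stretch chosen held the most kinds of motif and, among those, the most matches, and overlapped no exon of the gene in GENCODE release 29. Positions count back from the last base before the start, which is -1. Capitals mark matches to TCACNCCAC (sterol regulatory element), CCAAT (NF-Y) or GGGCGG (Sp1) on either strand.
HMGCS1, the first of its 2 starts (chr5:43313525-43313584, minus strand, -172 to -113): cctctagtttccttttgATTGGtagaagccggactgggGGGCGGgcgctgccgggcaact
IDI1, the second of its 3 starts (chr10:1049189-1049248, minus strand, -129 to -70): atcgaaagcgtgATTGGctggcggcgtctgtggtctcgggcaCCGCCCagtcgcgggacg
INSIG1 (chr7:155297705-155297764, plus strand, -173 to -114): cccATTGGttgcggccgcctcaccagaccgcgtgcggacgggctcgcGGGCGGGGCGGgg
SREBF2 (chr22:41832958-41833017, plus strand, -147 to -88): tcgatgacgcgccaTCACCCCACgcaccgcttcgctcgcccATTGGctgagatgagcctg

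HepG2 listed 1 of the 7 members and Huh7 listed 2, and 0 were listed in both. INSIG1 was the member listed in HepG2. HMGCS1 and IDI1 were the members listed in Huh7. The other 4, FDFT1, SQLE, LSS and SREBF2, were listed in neither cell line. These are shares of 14.3% and 28.6%, to be read beside 21.6% and 19.7% of all background genes. Of the protein-coding genes of GENCODE release 29, the kind all members belong to, 23.9% and 21.9% were listed. One gene more or fewer would move either share across its background, so neither share stands apart from it. Over all background genes 10.3% were listed in both comparisons, and for 7 genes that is less than 1 gene. Neither comparison shares a library with the other.

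HMGCS1 makes HMG-CoA in the cytosol, early in the mevalonate arm. In Huh7 it stood under 153 of 13760 GO terms and under 5 KEGG pathways, whereas in HepG2 it stood under 0. Of these GO terms, 130 were biological processes, 15 molecular functions and 8 cellular components.

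IDI1 turns isopentenyl diphosphate into dimethylallyl diphosphate, the starter unit of isoprenoid chains. It stood under 76 GO terms in Huh7 and under 0 in HepG2. The term isopentenyl-diphosphate delta-isomerase activity has 2 background genes, and each cell line listed 1 of them. In Huh7 this was IDI1, and in HepG2 it was its paralog IDI2. Read sharing between the paralogs was checked on the annotated transcripts. All 4502 stretches of 75 bases in IDI1 transcripts and all 1285 in IDI2 transcripts were absent from transcripts of any other gene. HMGCS1 and IDI1 stood together under 59 GO terms and 2 KEGG pathways in Huh7.

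INSIG1 is a sterol-responsive protein of the endoplasmic reticulum that retains SCAP and SREBP2. It stood under 302 of 14390 GO terms in HepG2, under 0 in Huh7, and under no KEGG pathway in either. It was the single background gene of the term SREBP-SCAP complex retention in endoplasmic reticulum. It was 1 of 3 background genes of the SREBP-SCAP-Insig complex, and in HepG2 it was the one listed. Regulation of SREBP signaling pathway, with 3 background genes, held INSIG1 and ZBTB7B in HepG2. Cellular response to sterol depletion, with 10 background genes, held 3 listed genes in HepG2, namely INSIG1, NPC1L1 and ZBTB7B, and 0 in Huh7.

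FDFT1 joins 2 farnesyl diphosphates into squalene, SQLE adds oxygen to squalene, and LSS closes the sterol ring system. These consecutive enzymes open the sterol arm, and 0 of the 3 were listed in either cell line. SREBF2 was also listed in neither. They were not found under another identifier either. The KEGG tables give NCBI gene numbers beside the Ensembl identifiers, and by these numbers too the 4 members stood under 0 pathways in each cell line. No listed gene overlapped the position of any of the 7 members in GENCODE release 29. At least 99.8% of the stretches of 75 bases in the transcripts of each member were found in no transcript of another gene.

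The pathway around the members was described with 5 lists of known genes, 61 genes in all with the members. Of these 61 genes, 15 (24.6%) were listed in HepG2 and 16 (26.2%) in Huh7, and 34 in neither. Without the members, 14 of 54 genes (25.9%) were listed in each cell line. Both values lie near the background shares. The genes of the pathway listed in both cell lines were 4: ACAT2 of the mevalonate arm, STARD5, which carries sterol inside cells, SOAT2, which esterifies cholesterol, and ABCG1, which exports it. They were 26.7% of the 15 HepG2 genes and 25% of the 16 Huh7 genes. Of all listed genes, 47.7% of the HepG2 list and 52.2% of the Huh7 list were shared. The difference was not tested.

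**Figure D1:**
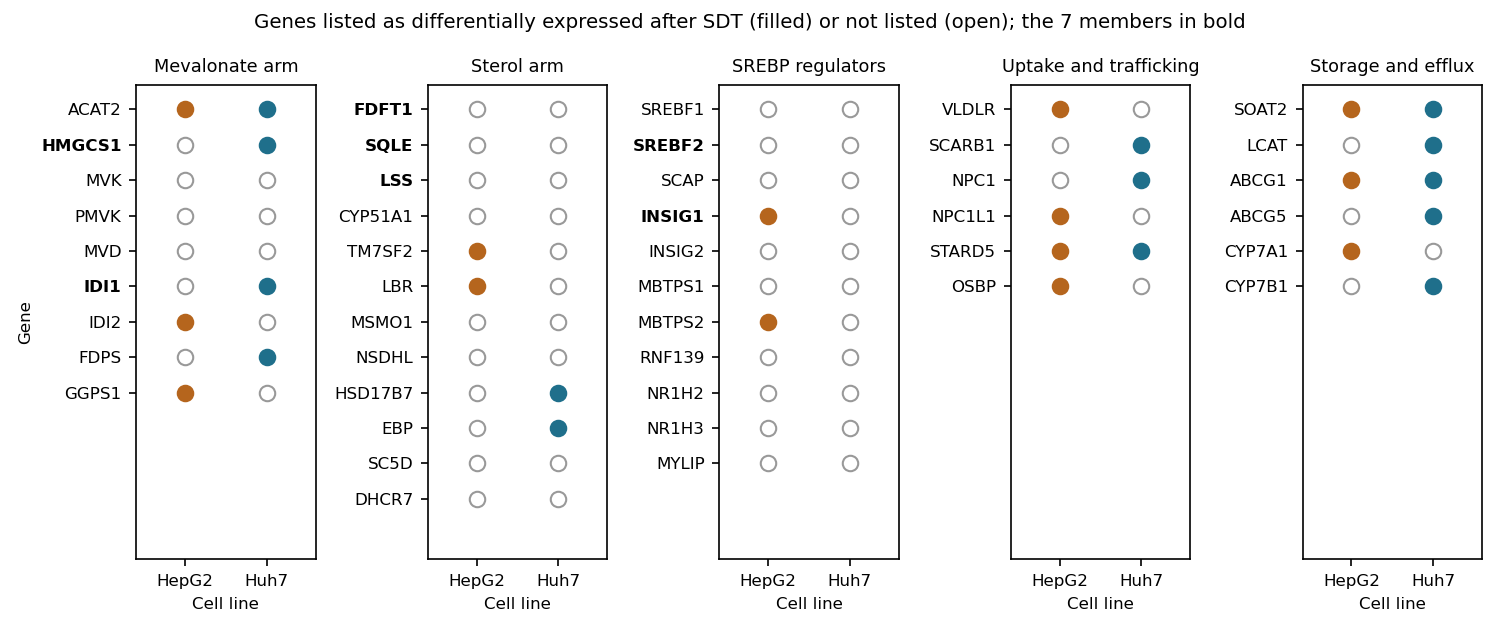
Each row is a gene of the 5 pathway lists that the text names, in bold where it is a member, and each column is a cell line; a filled circle marks a gene listed as differentially expressed after SDT and an open circle one that was not listed. HMGCS1 and IDI1 are filled in Huh7, INSIG1 is filled in HepG2, and 4 of the 44 genes drawn are filled in both cell lines.

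In the mevalonate arm, 3 of 10 genes (30%) were listed in HepG2 and 5 (50%) in Huh7, beside 21.6% and 19.7% of the background. The Huh7 genes included ACAT2, HMGCS1, IDI1 and FDPS. ACAT2 makes acetoacetyl-CoA, and FDPS makes farnesyl diphosphate. MVK, PMVK and MVD, which act between HMGCS1 and IDI1, were listed in neither cell line. The HepG2 genes were ACAT2, IDI2 and GGPS1, and GGPS1 leads away from cholesterol to geranylgeranyl diphosphate. A locus named TBCE overlaps GGPS1 on the same strand and stood under GO terms or KEGG pathways in Huh7 but not in HepG2. Read sharing between GGPS1 and TBCE was not checked. ACAT2 was the 1 gene listed in both. Without HMGCS1 and IDI1 the Huh7 count is 3, the same as in HepG2.

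In the sterol arm, 2 of 13 genes were listed in HepG2 and 3 in Huh7, and 0 in both. The Huh7 genes included HSD17B7 and EBP, which act late, between lanosterol and cholesterol. The HepG2 genes were TM7SF2 and LBR, both of which encode sterol C14 reductases. The enzymes FDFT1, SQLE, LSS, CYP51A1, MSMO1, NSDHL, SC5D and DHCR7 were listed in neither. Over both arms, 5 of 23 genes (21.7%) were listed in HepG2 and 8 (34.8%) in Huh7, beside 21.6% and 19.7% of the background.

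CYP51A1, the lanosterol demethylase, needs a qualification. Its own identifier was listed in neither cell line. The KEGG tables of both cell lines held instead the locus ENSG00000285772, which spans chr7:92112159-92179511 in GENCODE release 29 (GRCh38) and overlaps CYP51A1 at chr7:92112151-92134803 on the same strand. The KEGG tables assigned it the NCBI gene number of CYP51A1. A further locus on that strand, ENSG00000285953 (chr7:92131774-92245924), overlaps CYP51A1 and was also in the KEGG tables of both cell lines, under Rap1 signaling pathway and not under Steroid biosynthesis. Only 22.5% of the stretches of 75 bases in CYP51A1 transcripts were unique to it, 804 of 3577, and most of the rest were shared with ENSG00000285772. For such reads the gene and the locus cannot be told apart. Counting CYP51A1 as listed would give 3 and 4 genes in the sterol arm.

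Among 12 regulators of SREBP and sterol sensing, 2 were listed in HepG2 and 0 in Huh7. The HepG2 genes were INSIG1 and MBTPS2, the protease that makes the second cut releasing nuclear SREBP. The gene YY2 overlaps MBTPS2 on the same strand and also stood under GO terms or KEGG pathways in HepG2 but not in Huh7. Read sharing between MBTPS2 and YY2 was not checked. SREBF1, SREBF2, SCAP, INSIG2 and MBTPS1 were listed in neither, nor was RNF139, a ubiquitin ligase of the sterol response, nor NR1H2, NR1H3 and MYLIP of the LXR response. The 2 of 12 (16.7%) in HepG2 and the 0 of 12 in Huh7 stand beside 21.6% and 19.7% of the background. The members listed in Huh7 were both enzymes, and the member listed in HepG2 was a regulator. This holds for the members only, since HepG2 also listed 5 of the 23 genes of both arms.

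Among 13 genes of uptake and trafficking, 5 (38.5%) were listed in HepG2 and 3 (23.1%) in Huh7, beside 21.6% and 19.7% of the background. The HepG2 genes included VLDLR, a receptor for lipoproteins, NPC1L1, which takes up free sterol, OSBP and STARD5. The Huh7 genes were SCARB1, the receptor for high-density lipoprotein, NPC1, which moves cholesterol out of lysosomes, and STARD5. Of 13 genes of storage, efflux and oxysterol formation, 3 (23.1%) were listed in HepG2 and 5 (38.5%) in Huh7. In HepG2 these were SOAT2, ABCG1 and CYP7A1, and in Huh7 SOAT2, ABCG1, LCAT, ABCG5 and CYP7B1. The gene SLC12A4 overlaps LCAT on the same strand and also stood under GO terms or KEGG pathways in Huh7 but not in HepG2. Read sharing between LCAT and SLC12A4 was not checked. CYP7A1 is the rate-limiting enzyme of bile acid synthesis, and CYP7B1 acts in its alternative route. As a comparison, 10 genes of fatty acid and glycerolipid synthesis, which are mainly under SREBP1, were counted. Of these, 1 (10%) was listed in HepG2 (ACSS2) and 2 (20%) in Huh7 (ELOVL6 and GPAM). The differences between the cell lines in these lists were not tested.

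**Figure D2:**
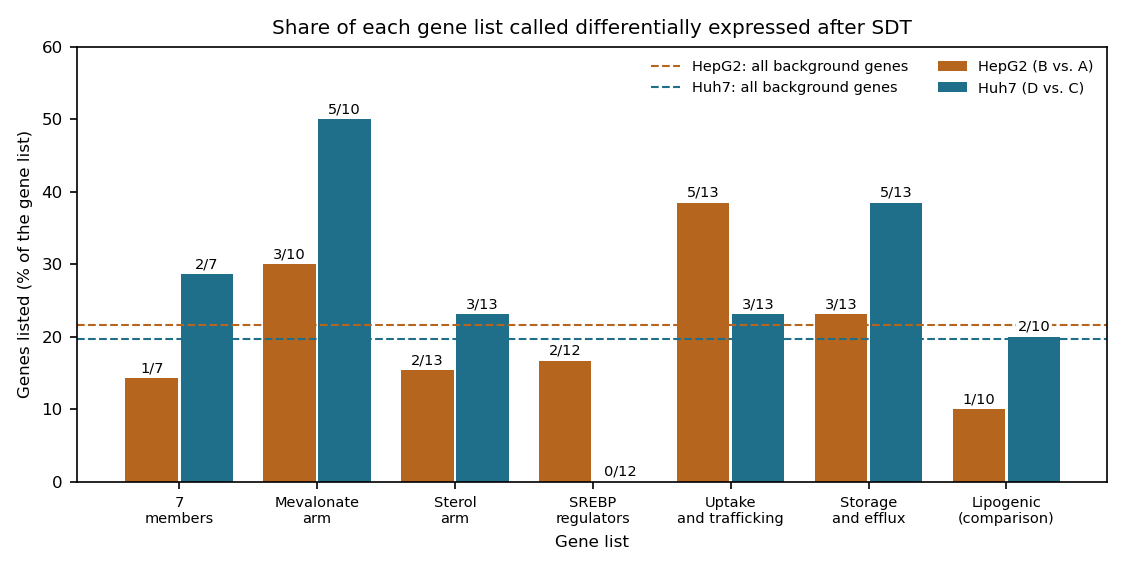
Bars give the percentage of each gene list that was listed as differentially expressed in HepG2 (brown) and Huh7 (blue), with listed genes over list size above each bar and dashed lines at the shares of all background genes, 21.6% and 19.7%. The mevalonate arm reaches 5 of 10 genes in Huh7, whereas the SREBP regulators reach 0 of 12 there.

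The KEGG pathway Steroid biosynthesis (hsa00100) is the sterol arm with some neighbours. It held 5 listed genes of 20 in HepG2 (25%) and 7 of 20 in Huh7 (35%). Gene entries summed over all pathways were listed at 26.3% and 25.8%. None of the 7 members was among the listed genes of this pathway. In HepG2 the listed genes were TM7SF2, SOAT2, CEL, CYP24A1 and the locus over CYP51A1. In Huh7 they included HSD17B7, EBP, SOAT2, CEL, CYP24A1 and the same locus. The 4 in common were SOAT2, CEL, CYP24A1 and that locus. CEL is a cholesterol ester lipase and CYP24A1 degrades vitamin D, so the shared part of the row held 1 locus of cholesterol synthesis proper. That locus was under no GO term of either comparison, which leaves 4 and 6 of the pathway genes in the GO lists.

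Both members listed in Huh7 belonged to the pathway before it, Terpenoid backbone biosynthesis (hsa00900). It held 7 listed genes of 21 in HepG2 (33.3%) and 8 in Huh7 (38.1%), with 4 in common, among them ACAT2, PCYOX1 and PDSS1. The Huh7 genes beyond the common ones included HMGCS1, IDI1 and FDPS. The HepG2 genes beyond them were IDI2, GGPS1 and FNTB, of which the last attaches farnesyl groups to proteins. So the count was nearly equal in the cell lines. The genes that were not shared included the paralogs IDI1 in Huh7 and IDI2 in HepG2, which act at the same step. HMGCS1 also stood under Synthesis and degradation of ketone bodies, where 4 of 9 genes were listed in HepG2 and 5 in Huh7, under Butanoate metabolism (10 and 11 of 26), and under Valine, leucine and isoleucine degradation (7 and 8 of 44). In each of these 3 pathways ACAT2 was listed in both cell lines. Metabolic pathways held HMGCS1 and IDI1 among its 297 listed genes of 1213 in Huh7.

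In GO, the term cholesterol biosynthetic process held 14 listed genes of 73 in HepG2 (19.2%) and 17 in Huh7 (23.3%). Its listed members were INSIG1 in HepG2 and HMGCS1 and IDI1 in Huh7. In both cell lines 3 genes were listed, ACAT2 and ABCG1 among them, which is 21.4% of the HepG2 genes and 17.6% of the Huh7 genes. Sterol metabolic process held 34 of 169 genes in HepG2 (20.1%) and 47 in Huh7 (27.8%). Isoprenoid biosynthetic process held 8 of 32 genes in HepG2 (25%) and 12 in Huh7 (37.5%), among them HMGCS1, IDI1 and FDPS. Regulation of cholesterol biosynthetic process held 6 of 47 genes in HepG2 (12.8%) and 9 in Huh7 (19.1%), with ABCG1 in common.

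Over all 65 GO terms on sterols, isoprenoids and low-density lipoprotein with at least 10 background genes, the median share of genes listed was 25% in HepG2 and 24% in Huh7. For all 8309 GO terms of that size it was 25.4% and 22.8%. Sterol terms as a whole were thus listed about as often as other terms. In 37 of the 65 terms more genes were listed in Huh7, in 25 more were listed in HepG2, and in 3 the numbers were equal. Among the 20 terms with a listed member the split was 14 and 6, and among the 45 without one it was 23 and 19. The listed members are themselves counted in the first split. A member was listed in Huh7 alone in 10 of these terms, in HepG2 alone in 4 and in both in 6. That split is therefore partly set by how the terms were picked, and no conclusion is drawn from it. Terms share genes and are not independent.

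The terms with more genes in HepG2 included response to sterol, with 10 of 31 genes in HepG2, INSIG1 among them, and 7 in Huh7, HMGCS1 among them. The terms with more genes in Huh7 included cholesterol esterification, with 4 of 14 genes in HepG2 and 7 in Huh7. These terms, and the small terms given with single members above, were named after their values had been seen.

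**Figure D3:**
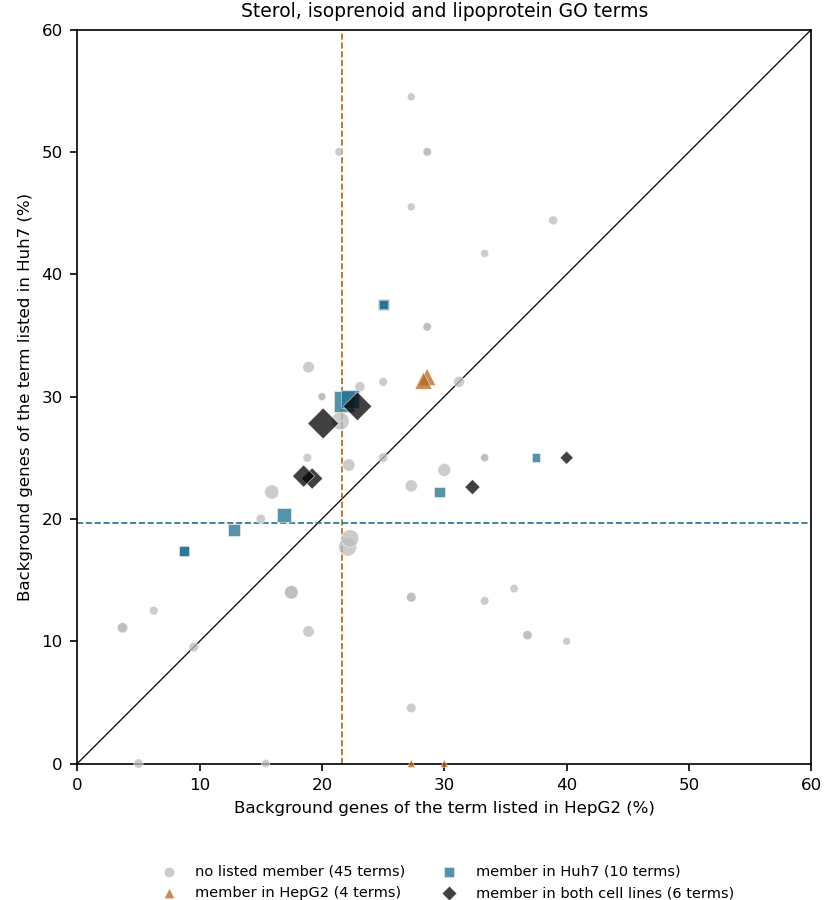
Each point is 1 of 65 GO terms, placed by the percentage of its background genes listed in HepG2 (horizontal axis) and Huh7 (vertical axis), with a size that grows with the number of background genes; dashed lines are the shares of all background genes and the solid line marks equality. Terms with a listed member lie on both sides of the line, 14 above it and 6 below it, with the listed members themselves counted.

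The promoter table had entries for 5 of the 7 members, with 8 start sites in all. In the 250 bases before the start, TCACNCCAC was found in 1 of these 8 promoters, that of SREBF2, at -133 to -125, with an inverted CCAAT box at -106 to -102. The same letters occurred in 0.883% of all 35116 promoters of that length. The members that were listed, HMGCS1, IDI1 and INSIG1, held no exact match in this window. With 1 mismatch allowed, IDI1 and INSIG1 also had matches. Counted by promoter, 4 of the 8 then held a match, beside 20.9% of all promoters. Of 25 promoters of the enzymes of both arms, 8 (32%) did. These differences were not tested. CCAAT, on either strand, was found in 6 of the 8 promoters and in all 5 members, beside 32% of all promoters. GGGCGG was found in 8 of 8, beside 42.6%. The CCAAT and GGGCGG boxes thus occurred in members that were listed and in members that were not. Among the 23 enzymes of both arms, 18 had a promoter entry, and 14 of these held CCAAT and 0 held TCACNCCAC.

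**Figure D4:**
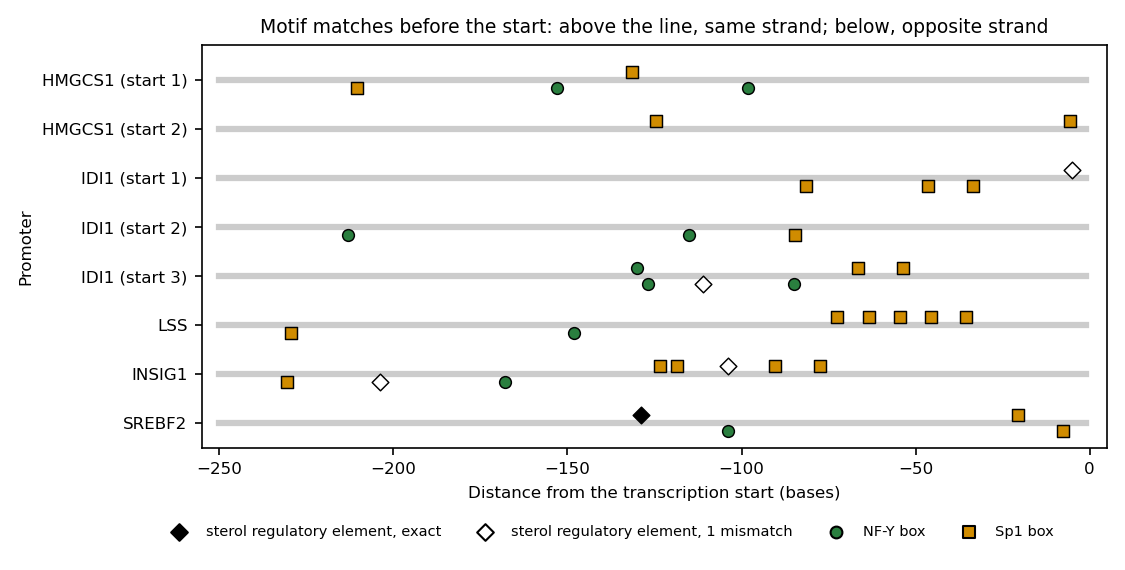
Each line is 1 promoter of a member, drawn as distance in bases from the transcription start, with matches on the strand of the gene above the line and on the opposite strand below it. The exact sterol regulatory element (filled diamond) is seen in SREBF2 alone, whereas Sp1 boxes (squares) are seen in all 8 promoters and NF-Y boxes (circles) in 6.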

How the data were processed

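RNA from 4 groups, with 1 library each, was sequenced; grouping followed the labels, with the paper's letters A to D. The submitters' processing notes name HISAT2, Bowtie2 2.2.8, StringTie 1.3.1 and Cuffdiff 2.1.1. The paper's methods name Cuffdiff for the differential calls at an adjusted p-value under 0.05, whereas its results name edgeR. The genome build is not given in the sources used here. GO terms were tested by the authors with GOseq and KEGG pathways with KOBAS. The deposited tables give numbers of genes, not reads, and the paper's text gives clean reads only as a total. The depth of each library is therefore unknown, and no interval was computed. They also hold the authors' p-values and corrected p-values of each term, which were not used.

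Listed genes were the union of identifiers under all GO terms, and their number equalled the list size in each table. Scripts ran in Python 3.11.15. All 71 genes of the lists had an identifier in the table of gene names. GENCODE release 29 gave overlapping loci, transcripts, gene types and NCBI numbers. The motif search, tested on simulated data, recovered all planted motifs. The members, gene lists, motifs and terms were chosen with earlier results of these data known; all members and list genes could be named, with the KEGG pathways of the steroid and terpenoid steps and the GO terms holding most members. No set test was run. Some genes counted in the lists and terms are not reported here by name. Alternatives were another table or term type for listing, leaving out members, a larger term minimum, and other motif settings.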

Additional observations from a re-analysis of the deposited data

How the results depend on the processing

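When the KEGG table defined listing, 0 members were listed in HepG2, since INSIG1 is under no pathway, and HepG2 counts fell to 1 in the sterol arm, 1 among SREBP regulators and 2 in uptake and trafficking. Without the members, the mevalonate arm held 3 listed genes in Huh7 and the SREBP regulators 1 in HepG2. With 100 bases before the start, 0 members held the sterol regulatory element and 2 held CCAAT; with 1 mismatch, 3 members held the element. The other 54 values stayed within 1.5 times, including 0 members in both comparisons and the 2 members in Huh7, and including CYP51A1 counted as listed, a setting chosen after seeing the data. Members could not be taken out of the background of KEGG Steroid biosynthesis, as the tables do not name background genes, and only listed members were taken out of GO terms. No paired analysis was possible because each group has 1 library. The depth of each library is unknown, so whether a gene that was not listed could have been called at this depth was not tested.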
